A study of Mus musculus with 16 samples.

Results

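The Agilent mouse gene expression array used for these livers carries 60-base probes that its design describes as lincRNA, each named by a genomic interval and a strand instead of a gene. A probe counted as a lincRNA interval probe when it was no control spot, when its identifier began with A_30_P and when its name began with chr and ended in _F (forward strand) or _R (reverse strand). Of 55681 gene probes, 16181 met these criteria, in 3540 intervals of the mouse build mm9, and 1067 of these intervals had probes on both strands. A probe was tested when it was well above background on at least 3 of the 16 arrays and had no outlier spot, which left 6645 lincRNA interval probes (41.1%) and 26369 other gene probes (66.8%). Of the rest, 20 were left out for an outlier spot and 9516 for low signal, and 6492 were well above background on no array. All 16063 lincRNA interval probes with a mapped position lay on the strand given in their name. Of 3537 intervals with a position, 659 (18.6%) held a probe of a named gene. The named genes include noncoding ones such as Malat1 and Tug1. This share therefore does not show how many intervals overlap a protein-coding gene. Only positions of gene probes on the array were compared, so an interval inside a gene but without its probe was not counted.

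The arrays measured liver RNA of male BALB/c mice, 6 to 8 weeks old at the start of dosing, with 1 array per animal. Wild type (WT) mice and Lcn2-/- mice, which lack lipocalin-2 and were made on a mixed 129/Ola and C57BL/6 background before backcrossing to BALB/c, received CCl4 in corn oil at 0.5 ml/kg by intraperitoneal injection or corn oil alone. Injections were given 2 times a week for 4 weeks, and the animals were killed 48 h later than the final injection. There were 4 WT control, 5 WT CCl4, 3 Lcn2-/- control and 4 Lcn2-/- CCl4 arrays. CCl4 is a hepatotoxin that injures the hepatocytes around the central vein and leads to fibrosis on repeated dosing, and lipocalin-2 is an iron-siderophore binding protein of the acute phase.

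Long intergenic noncoding RNAs are transcribed between protein-coding genes, often spliced and polyadenylated, and usually present at low copy number and in few tissues. Some, such as Malat1 and Tug1, act in the nucleus, and others are the host transcripts of small nucleolar RNAs or microRNAs. A probe of an interval hybridizes to labelled RNA from the strand in its name, so the probes of both strands measure different transcripts.

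The following sequences belong to probes named below for a large change after CCl4, a difference between genotypes or an interaction, chosen from the named probes after their values were seen, and were read from the array files 5′ to 3′ in the sense of the named strand. They are shown because each result on a single interval rests on which 60 bases were on the array. First come the 6 probes that fell most in WT livers after CCl4. The capitals mark the bases CATCCCT, which 4 of these 6 probes contain.

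A_30_P01027172, chr8:49866300-49866359, reverse: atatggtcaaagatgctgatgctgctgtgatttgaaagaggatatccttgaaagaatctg
A_30_P01024647, chr4:135904500-135904559, reverse: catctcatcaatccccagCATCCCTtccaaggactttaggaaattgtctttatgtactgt
A_30_P01032248, chr12:111837704-111837763, forward: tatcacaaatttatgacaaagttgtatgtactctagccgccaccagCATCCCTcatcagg
A_30_P01025700, chr13:108656891-108656950, forward: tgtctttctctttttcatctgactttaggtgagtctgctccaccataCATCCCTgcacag
A_30_P01020059, chr17:14698372-14698431, forward: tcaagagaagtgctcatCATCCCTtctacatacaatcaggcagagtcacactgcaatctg
A_30_P01017959, chr10:87542451-87542510, reverse: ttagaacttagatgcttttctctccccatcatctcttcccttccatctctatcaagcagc

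The next probes rose after CCl4, and the first 2 come from overlapping intervals of chromosome 10.

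A_30_P01033518, chr10:83224927-83224986, forward: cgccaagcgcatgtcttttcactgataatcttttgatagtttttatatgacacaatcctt
A_30_P01032460, chr10:83225374-83225433, forward: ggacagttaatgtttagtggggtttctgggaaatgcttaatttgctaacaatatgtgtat
A_30_P01018981, chr7:13541092-13541151, forward: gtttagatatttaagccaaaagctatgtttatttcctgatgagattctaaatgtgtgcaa

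The last set differed between the genotypes. In the first pair the capitals mark the 41 bases by which both probes overlap in the genome.

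A_30_P01019330, chr5:67868362-67868421, forward: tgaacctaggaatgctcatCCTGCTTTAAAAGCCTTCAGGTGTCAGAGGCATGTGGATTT
A_30_P01022803, chr5:67868381-67868440, forward: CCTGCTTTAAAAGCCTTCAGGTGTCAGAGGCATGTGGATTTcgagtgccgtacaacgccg
A_30_P01020007, chr5:105073876-105073935, forward: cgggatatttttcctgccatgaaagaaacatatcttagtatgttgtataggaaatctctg
A_30_P01024353, chr3:118029579-118029638, reverse: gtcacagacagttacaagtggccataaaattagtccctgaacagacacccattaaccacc
A_30_P01031447, chr5:120253825-120253884, reverse: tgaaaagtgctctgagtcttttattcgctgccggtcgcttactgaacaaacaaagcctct
A_30_P01024084, chr15:97674076-97674135, reverse: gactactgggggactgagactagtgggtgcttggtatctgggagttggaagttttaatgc
A_30_P01033312, chrX:148733212-148733271, forward: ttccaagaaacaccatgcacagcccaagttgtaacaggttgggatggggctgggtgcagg

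Levels below are log2 processed signals after quantile normalization over the 16 arrays, and a change is a difference of such levels. Tests were moderated linear models (limma) fitted to all 33014 tested probes, with p-values adjusted over these probes within each comparison and a call at an adjusted p under 0.05. The lincRNA interval probes had a median level of 6.62 against 9.90 for the other probes, no spot of theirs was saturated, and between 4669 and 6565 of them were well above background on an array. As a check of the labels, the Lcn2 probe was read on each array. It stood at 17.57 in WT control replicate 3 and between 13.80 and 16.49 in the other 8 WT livers. In Lcn2-/- livers it stood from 10.46 to 12.25, without overlap. It was well above background on every Lcn2-/- array too, so the check rests on the level and not on a missing signal. The hepatocyte markers (10 genes such as Alb and Apoa1) were tested for all members and none was called after CCl4 in either genotype, with a mean level per array between 17.94 and 18.33. Of 6 stellate cell markers, 6 rose in WT and 5 in Lcn2-/- livers after CCl4, with median changes of 1.31 and 1.18. Of 5 neutrophil markers, 2 rose in WT and 0 in Lcn2-/- livers, with medians of 1.96 and 1.24. The medians were 0.42 and 1.07 for 5 cholangiocyte markers, -0.43 and -0.07 for 5 endothelial markers, -0.22 and -0.14 for 6 macrophage markers and -0.35 and -0.11 for 6 tested markers of T and B cells, with at most 2 calls per list and genotype. The part of these cell types in the results below was not tested. Lists for other tissues were read as well. Of 2 tested pancreas markers, 1 rose in WT and 0 in Lcn2-/- livers. The 1 tested adipose marker was lowered in WT livers, by -2.12, and changed by 0.048 in Lcn2-/- livers without a call. The 1 tested muscle marker was not called. The part of these tissues was not tested either. The arrays lay on 2 slides. Slide 1 held all 7 control arrays and WT CCl4 replicate 1, and slide 2 held the other 8 CCl4 arrays.

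The first question was how these transcripts responded to CCl4 in WT livers. Of the 6645 lincRNA interval probes, 1072 were called, 176 raised and 896 lowered, against 15% of all 33014 tested probes called. When 1 array was left out, between 561 and 1339 lincRNA interval probes were called. Over all tested probes 7.34% were raised and 7.65% lowered. The median change of the lincRNA interval probes was -0.28, compared with 0.0025 for the other probes, of which 2247 were raised and 1630 lowered. A change below 0 was measured for 69.7% of the lincRNA interval probes and for 49.7% of the others. Of the called lincRNA interval probes 429 changed by at least 2-fold, against 1992 of the 3877 called other probes (51.4%). Among the 3637 lincRNA interval probes well above background on all 16 arrays, 73 were raised and 677 lowered, and among the 21228 other such probes the numbers were 1444 and 1343. A probe that reached the detection limit in 1 treatment only had to differ, and this was so for 56 tested probes with none of 9 CCl4 arrays and for 288 with none of 7 control arrays well above background. In whole liver RNA, fewer cells of a type and less RNA per cell cannot be told apart.

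Lcn2-/- livers were then examined for the same response. Of the lincRNA interval probes, 660 were called, 174 raised and 486 lowered, against 11.1% of all tested probes called, 6.16% raised and 4.93% lowered. When 1 array was left out, between 314 and 689 lincRNA interval probes were called. Their median change was -0.23, and that of the other probes was 0.017, with 1860 raised and 1142 lowered. Both responses share no arrays. Among the other probes 2136 were called in both genotypes, 55.1% of their WT and 71.2% of their Lcn2-/- calls, and 2134 of these had the same direction. Of the called lincRNA interval probes, 448 were called in both genotypes, which is 41.8% of the WT calls and 67.9% of the Lcn2-/- calls. All of these had the same direction in both genotypes, 89 raised and 359 lowered. Across the 6645 probes, which are not independent of each other, the changes in both genotypes had a Pearson r of 0.71 and a Spearman rho of 0.66.

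**Figure D1:**
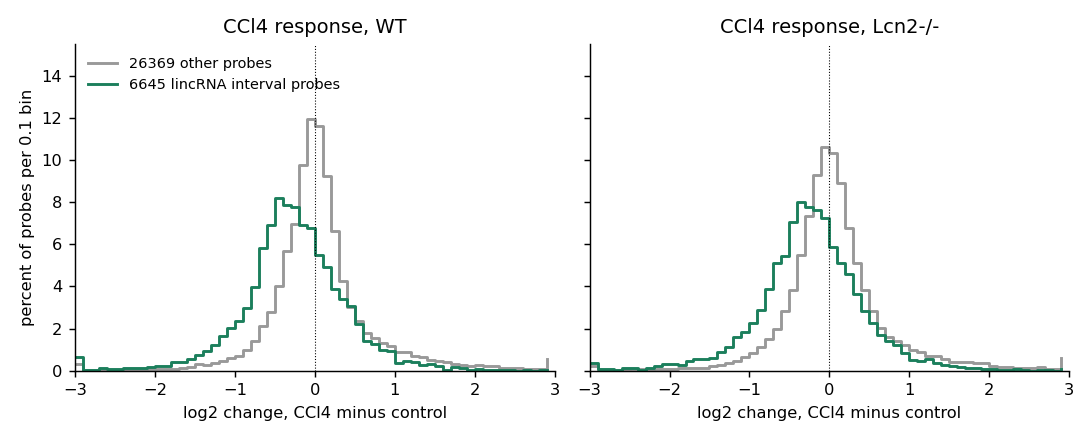
Distribution of the change after CCl4 (log2, CCl4 minus control) in WT (left) and Lcn2-/- livers (right), as percent of probes per bin of 0.1; the end bins hold everything beyond them. The curve of the 6645 lincRNA interval probes (green) lies to the left of that of the 26369 other probes (grey), with medians of -0.28 against 0.0025 in WT and -0.23 against 0.017 in Lcn2-/- livers.

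The shift was also read on each array, as the median over lincRNA interval probes of the deviation from the probe's mean over 16 arrays. The WT control arrays gave 0.19, 0.27, -0.035 and 0.052, and the WT CCl4 arrays gave -0.24, -0.17, -0.058, -0.078 and -0.19. The Lcn2-/- control arrays gave 0.22, 0.24 and 0.030, and the Lcn2-/- CCl4 arrays gave 0.035, -0.026, -0.095 and -0.10. In WT livers every CCl4 array lay below every control array, whereas in Lcn2-/- livers the highest CCl4 array lay above the lowest control array. Control replicate 3 was the lowest control array in both genotypes. With both left out the medians were -0.33 in WT and -0.29 in Lcn2-/- livers. WT CCl4 replicate 1, the only CCl4 array on slide 1, had the lowest deviation of all arrays.

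**Figure D2:**
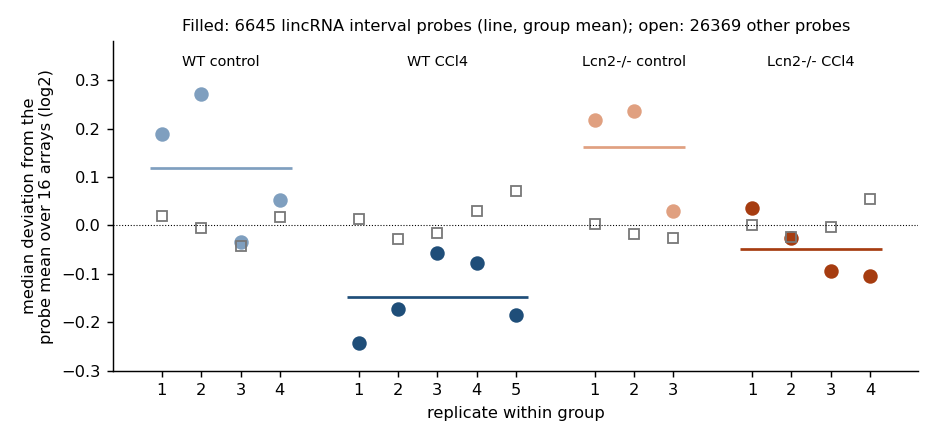
Median deviation (log2) of 6645 lincRNA interval probes on each array from the probe means over 16 arrays (filled circles, horizontal lines for group means) and of the 26369 other probes (open squares), by group and replicate. The lincRNA interval probes ranged from -0.24 on a WT CCl4 array to 0.27 on a WT control array, while the other probes stayed between -0.042 and 0.070.

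Slide and treatment could be separated only through that array. With the slide as a fixed block, 238 lincRNA interval probes were called in WT livers, 71 raised and 167 lowered, and within slide 1 the numbers were 151, 45 and 106. Of the other 26369 probes, 869 were raised and 386 lowered with the block, and 471 and 188 within slide 1. Both fits rest on the same comparison, that of WT CCl4 replicate 1 with the 4 WT controls, so their median change was the same by construction, -0.37, and that of the other probes was 0.0056. In Lcn2-/- livers the control group lay on slide 1 and the CCl4 group on slide 2, so slide and CCl4 cannot be told apart there from these groups alone. With the slide block, which draws on the WT arrays, 63 probes were called, 31 raised and 32 lowered, with a median of -0.33, and of the other probes 385 were raised and 76 lowered. With array weights 2010 were called in WT and 1668 in Lcn2-/- livers, against 26.1% and 25.7% of all tested probes. Scaling each array to its 75th percentile instead of quantile normalization took the median change of all tested probes from -0.033 to -0.17 in WT and from -0.020 to -0.15 in Lcn2-/- livers, a move of -0.13 in each. The lincRNA interval probes then had medians of -0.46 and -0.43, against -0.12 and -0.092 for the other probes. Their calls then split into 111 raised and 1432 lowered in WT and 86 raised and 795 lowered in Lcn2-/- livers. Among the other probes, raised calls had outnumbered lowered ones, and this order turned with the scaling. They split into 1814 raised and 2845 lowered in WT and 1356 raised and 1689 lowered in Lcn2-/- livers. Other processing made the shift smaller. With normexp, and without the filter, the medians of the lincRNA interval probes were less negative in both genotypes, as given in the last section.

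The size of the shift varied among the lincRNA interval probes with their level and their base composition. In WT livers the median change was -0.086 for the 1050 probes with a mean level under 5, -0.42 for the 429 probes between 9 and 10, and -0.23 for the 382 probes above 12. The other probes had medians between -0.030 and 0.24 in the same classes. By GC content, the WT median fell from 0.011 for the 822 lincRNA interval probes with at most 35% GC to -0.60 for the 279 probes above 60%. The corresponding Lcn2-/- medians were -0.022 and -0.56. The other probes had WT medians of 0.034 and -0.48 in these classes, the latter over 134 probes. Between 45% and 50% GC, where both sets have many probes, the WT medians were -0.39 for the 425 lincRNA interval probes and -0.016 for the 1541 others. Lowered lincRNA interval probes had a median GC content of 46.7%, raised ones 42.5% and uncalled ones 45%. The part of base composition in the shift was not tested.

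**Figure D3:**
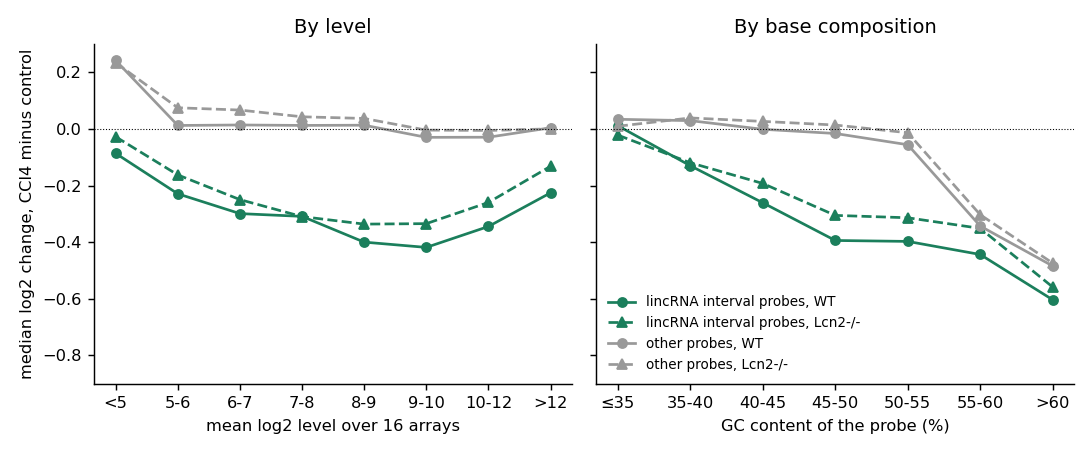
Median change after CCl4 (log2) by class of mean level (left) and of probe GC content (right) for lincRNA interval probes (green) and other probes (grey), in WT (solid line, circles) and Lcn2-/- livers (dashed line, triangles). The lincRNA interval probes lay below the other probes in every class of level, and their median fell to -0.60 in WT above 60% GC, where the other probes stood at -0.48.

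By strand, the median change in WT livers was -0.33 for the 3216 tested forward probes, with 65 raised and 482 lowered, and -0.22 for the 3429 reverse probes, with 111 raised and 414 lowered. The Lcn2-/- medians were -0.26 and -0.20. By chromosome, the WT median ranged from -0.42 on chromosome 19 to -0.16 on chromosome 18, so that all 20 chromosomes with probes had a median below 0. The Lcn2-/- medians ranged from -0.34 on chromosome 6 to -0.10 on chromosome 18.

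The 6 probes with the most negative change in WT livers came from intervals on 6 chromosomes and had a negative change in both genotypes. The order of the arrays within a group was not the same in all of them. Replicate 4 of the Lcn2-/- CCl4 livers was the lowest of its group for A_30_P01027172 and the highest for A_30_P01024647. A_30_P01027172 stood at 13.32, 12.90, 11.56 and 12.51 in WT controls, at 6.58, 5.88, 8.32, 6.69 and 6.60 in WT CCl4 livers, at 13.58, 13.24 and 12.23 in Lcn2-/- controls and at 8.73, 8.77, 9.61 and 8.17 in Lcn2-/- CCl4 livers. Every CCl4 array thus lay below every control array in both genotypes. The change was -5.76 (SE 0.48, limma adjusted p = 5.14e-06) in WT and -4.19 (SE 0.54, adjusted p = 0.000246) in Lcn2-/- livers.

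A_30_P01024647 gave 14.09, 14.14, 12.39 and 13.08 in WT controls and 8.13, 7.55, 9.64, 8.31 and 9.26 in WT CCl4 livers. The Lcn2-/- arrays gave 13.93, 14.09 and 12.49 in controls and 9.99, 9.88, 10.68 and 10.91 after CCl4. It fell by 4.85 in WT (SE 0.49, adjusted p = 2.35e-05) and by 3.14 in Lcn2-/- livers (SE 0.56, adjusted p = 0.00242). The other 4 of these probes, A_30_P01032248, A_30_P01025700, A_30_P01020059 and A_30_P01017959, changed by -4.65, -4.56, -4.46 and -4.46 in WT livers and by -3.22, -2.98, -2.58 and -3.09 in Lcn2-/- livers. A_30_P01020059 was well above background on 1 of 5 WT CCl4 arrays, so the size of its WT change rests partly on values at the detection limit. With the slide as a fixed block, where the WT response rests on 1 CCl4 array, their changes were between -5.99 and -4.60, which is a value from 1 array and no further test. In all 6 the lowest of the WT controls and the lowest of the Lcn2-/- controls was replicate 3. A_30_P01020059 lies in an interval of chromosome 17 whose nearest named gene on the array, Thbs2 (thrombospondin 2, a matrix protein), lies 106050 bases away on the opposite strand and rose by 2.49 in WT livers (adjusted p = 1.87e-06) and was also called as raised in Lcn2-/- livers.

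Some probes of the major urinary proteins, pheromone carriers that the male mouse liver makes in very large amount, also fell. These probes, looked at after the values had been seen, were 17 in number, all tested. In WT livers 12 fell and none rose, where 7.65% of all tested probes were lowered, and in Lcn2-/- livers 7 fell and none rose, where 4.93% were lowered. Their median changes were -0.51 and -0.44, and their WT changes ran from -3.93 to 0.10. Their mean levels ran from 9.81 to 18.95, and the most negative change was that of the dimmest, a Mup4 probe. It stood at 11.78, 11.69, 10.87 and 11.88 in WT controls, at 7.31, 6.77, 8.63, 7.30 and 8.12 in WT CCl4 livers, at 12.27, 11.97 and 11.40 in Lcn2-/- controls and at 9.14, 8.95, 9.79 and 9.16 in Lcn2-/- CCl4 livers. It changed by -3.93 (SE 0.35, adjusted p = 8.4e-06) in WT and -2.63 (SE 0.39, adjusted p = 0.000757) in Lcn2-/- livers. A Mup9 probe of mean level 14.52 changed by -2.98 and -2.03. The second, brighter probe of each of these genes changed much less. That of Mup9, at a mean level of 18.95, changed by -0.13 and -0.068 and was not called. That of Mup4, at 18.39, changed by -0.38 in WT livers (limma adjusted p = 0.0441) and by -0.30 in Lcn2-/- livers without a call.

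Short runs of bases shared with these major urinary protein probes were counted in the lincRNA interval probes. Of the 76 tested probes that shared a run of at least 11 bases in the same orientation, 17 were lowered in WT livers (22.4%), 1 was raised and 6 had a change under -2. Of the 93 with such a run as its reverse complement, 7 were lowered (7.53%), 2 were raised and none had a change under -2. Without a run in the same orientation, 879 of 6569 were lowered (13.4%) and 175 raised. The 6 most lowered probes shared no run of that length, their longest being 8 to 10 bases. The motif CATCCCT was noticed in 4 of them, so a share that counts these 4 restates that observation. Without the 6 probes it was in 2 of 101 lincRNA interval probes with a WT change under -2 (1.98%), in 43 of 6639 tested ones (0.648%) and, for all 55681 gene probes of 60 bases, in 265 (0.476%). Of the 180 other probes with such a change, 3 held it (1.67%). Its reverse complement was in 20 of the 6645 tested lincRNA interval probes. The motif CTCTTCC, also looked at after the values were seen, was in 10 of the 101 (9.90%), in 1.70% of the 6639 and in 0.812% of all gene probes. Only 1 of the 6 omitted probes held CTCTTCC, so their omission does not remove the lowered probes among which it was noticed. Its shares describe these probes and are no test. CTCTTCC was also in 10 of the 180 other probes with such a change (5.56%), and its reverse complement was in no probe of either set with such a change. The part of the major urinary protein RNAs in the signal of these probes was not tested.

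**Figure D4:**
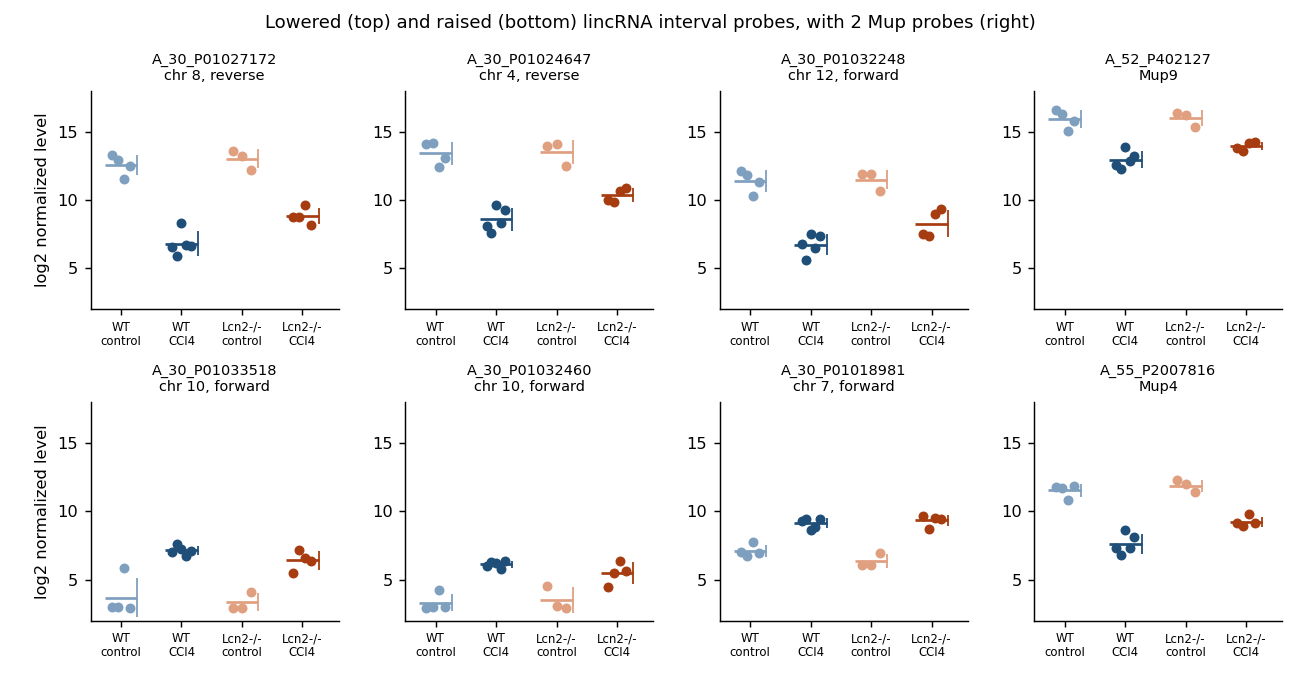
Level (log2) of 3 lowered (top) and 3 raised (bottom) lincRNA interval probes and of Mup9 and Mup4 probes (right column) on each array, by group, with the group mean (horizontal line) and SD (vertical line). The lowered probes and the Mup probes have their lowest group mean in WT CCl4 livers, and A_30_P01027172 falls from a mean of 12.57 to 6.81 in WT and from 13.01 to 8.82 in Lcn2-/- livers. The brighter probes of Mup9 and Mup4, which changed less, are not shown.

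In Lcn2-/- livers the 6 most lowered probes by the same rule were A_30_P01027172 and 5 others. A_30_P01029982, in an interval of chromosome 13, changed by -3.55 (SE 0.66, adjusted p = 0.00338) in Lcn2-/- and by -3.86 in WT livers, with 1 of 4 and 3 of 5 CCl4 arrays well above background, so both sizes rest partly on values at the detection limit. A_30_P01020974, on chromosome 8 at 1157 bases from Gabarapl2, was well above background in all 7 controls and on none of the 9 CCl4 arrays, so it passed the filter only through the controls. It was at least 5.22-fold lower after CCl4 in WT (adjusted p = 4.91e-05) and at least 3.78-fold lower in Lcn2-/- livers (adjusted p = 0.00107). Gabarapl2, an autophagy gene, changed by -0.18 and -0.08 and was not called. The other 3 probes were high only in Lcn2-/- controls and are given with the interaction.

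Raised probes were fewer. Of the 176 in WT livers, 47 were well above background on no WT control array, 46 on some and 83 on all 4. Of the 174 in Lcn2-/- livers, 85 were so on none of the 3 control arrays, 16 on some and 73 on all, so that the sizes of many raised calls rest on control values at the limit. A_30_P01033518 in chr10:83181374-83249774_F stood at 2.99, 3.00, 5.84 and 2.93 in WT controls and at 7.04, 7.60, 7.21, 6.75 and 7.10 in WT CCl4 livers. Among the Lcn2-/- arrays it stood at 2.95, 2.95 and 4.11 in controls and at 5.52, 7.17, 6.62 and 6.39 after CCl4. All CCl4 arrays but only 1 WT control array were well above background, and the groups did not overlap in either genotype. The change was 3.45 in WT livers (SE 0.54, adjusted p = 0.000561), and the probe was at least 1.87-fold higher in Lcn2-/- livers (adjusted p = 0.00465). Since 3 of the 4 WT controls were at the detection limit, the size of the WT change rests partly on values that only bound the level. All 5 probes of this interval were raised in WT, by 0.85 to 3.45, and 2 were called in Lcn2-/- livers. Of the 5, 2 were well above background on no control array, 1 of them on WT CCl4 arrays alone, so these 2 passed the filter only through the treatment in which they are high and add no support. A_30_P01032460, from the overlapping interval chr10:83185606-83225506_F, was at least 2.35-fold higher in WT livers after CCl4 (adjusted p = 0.000323). It was well above background on no control array and passed the filter only through CCl4 arrays, so it adds no support either. The nearest gene probe, Appl2, lies 118006 bases away on the opposite strand and changed by -0.11 and 0.08, without a call.

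Both probes of chr4:149445201-149445902_F that the rule named rose in both genotypes. A_30_P01024344 changed by 3.22 (SE 0.71, adjusted p = 0.00705) in WT and 3.07 (SE 0.81, adjusted p = 0.0248) in Lcn2-/- livers. A_30_P01025511 changed by 3.06 (adjusted p = 0.003) and 3.28 (adjusted p = 0.00614). In WT controls both were highest in replicate 3, at 7.81 and 8.29, still below every WT CCl4 array. A_30_P01024344 was well above background on 2 of 4 WT and 1 of 3 Lcn2-/- controls and A_30_P01025511 on 1 of 3 Lcn2-/- controls, so these sizes rest partly on values at the limit. A_30_P01018981 in chr7:13533925-13544525_F was well above background on all arrays. It stood at 7.01, 6.73, 7.73 and 6.95 in WT controls and at 9.32, 9.44, 8.62, 8.85 and 9.47 in WT CCl4 livers. It stood at 6.09, 6.08 and 6.93 in Lcn2-/- controls and at 9.68, 8.70, 9.52 and 9.43 in Lcn2-/- CCl4 livers. It rose by 2.04 (SE 0.27, adjusted p = 0.000186) in WT and by 2.97 (SE 0.31, adjusted p = 4.59e-05) in Lcn2-/- livers, with no overlap of groups.

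The remaining raised probes in WT livers were A_30_P01024579 on chromosome 9, which changed by 3.20 (adjusted p = 0.0101) with 1 of 4 WT controls well above background, A_30_P01019540 on chromosome 4, at least 1.54-fold higher (adjusted p = 0.00175), and A_30_P01021999 on chromosome 16, at least 2.74-fold higher (adjusted p = 0.00196). In Lcn2-/- livers, A_30_P01030448 on chromosome 2, A_30_P01018985 on chromosome 7 and A_30_P01031002 on chromosome 13 were well above background on none of the 3 control arrays. They were at least 1.27-fold, 1.07-fold and 1.04-fold higher after CCl4 (adjusted p = 0.00061, 0.0122 and 0.00372), with 3, 3 and 1 of 4 CCl4 arrays well above background. None of them was called in WT livers, where 0, 1 and 3 of 5 CCl4 arrays and none of the controls were well above background. A_30_P01019540, A_30_P01021999 and these 3 probes were well above background on no control array of either genotype, so they entered the test only through the CCl4 arrays, where they are high.

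With the slide as a fixed block, 1 CCl4 array stands against the WT controls, so fewer probes pass the test, and a lost call does not by itself show an effect of the slide. Of the 6 raised probes named in WT livers, 5 lost the call. The size of the change stayed close to that reported for A_30_P01033518 at 3.35 (adjusted p = 0.0592), A_30_P01024344 at 3.08 (adjusted p = 0.184) and A_30_P01021999 at 1.99 (adjusted p = 0.143). It was smaller for A_30_P01024579 at 2.22 (adjusted p = 0.342) and for A_30_P01019540, which went from a fitted 2.37 to 0.83 (adjusted p = 0.39). Of the probes named in Lcn2-/- livers, A_30_P01025511 at 2.93, A_30_P01033518 at 2.96, A_30_P01031002 at 3.13 and A_30_P01020974 at -3.32 lost the call with little change in size, and A_30_P01018985 lost it with a change of 1.49 in place of a fitted 2.72. Their adjusted p ran from 0.114 to 0.539, whereas A_30_P01018981, detected on all arrays, kept the call (adjusted p = 0.0131).

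Several probes of 1 interval were compared with each other. In 1720 interval strands with at least 2 tested probes, the changes of the first 2 probes had a Pearson r of 0.46 in WT and 0.40 in Lcn2-/- livers. These probes target 1 interval and some overlap. Where at least 2 probes of an interval strand were called, they had the same direction in 143 of 154 cases in WT and in 72 of 77 cases in Lcn2-/- livers. Since 896 of the 1072 WT and 486 of the 660 Lcn2-/- calls were lowered, most such sets would share a direction whatever the interval, and nothing is read from these counts. The interval with the most called probes was chr2:153163620-153170845_R, where 6 of 9 probes were raised in WT and 9 of 9 in Lcn2-/- livers. The changes over its 9 probes were 0.31 to 0.53 and 0.50 to 0.91. A_30_P01024533, its probe checked under the alternatives, changed by 0.52 in WT livers and by 0.49 with the slide as a fixed block, where it was not called (adjusted p = 0.257). Its neighbour 2500004C02Rik at 769 bases changed by 0.08 and 0.58 and was not called.

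The reverse strand of chr15:32167516-32174427 contains Snord123, a small nucleolar RNA gene. All 5 probes of the interval were raised in both genotypes, by 1.44 to 1.52 in WT and 1.36 to 1.70 in Lcn2-/- livers. A_30_P01029468 stood at 9.56, 8.99, 9.68 and 9.28 in WT controls and at 10.97, 10.78, 10.72, 10.89 and 10.81 in WT CCl4 livers. It stood at 8.92, 8.88 and 8.97 in Lcn2-/- controls and at 9.97, 10.40, 10.67 and 10.73 after CCl4, and no group overlapped in either genotype. All 4 tested probes of the shorter interval chr15:32167516-32174417_R rose as well, by 1.37 to 1.73 in WT livers. The Snord123 probe itself, which shares bases with some of them, changed by 1.42 (adjusted p = 6.53e-05) in WT and 1.49 (adjusted p = 0.000213) in Lcn2-/- livers. In chr1:134237581-134248506_R, 5 of 5 probes fell in WT livers, by 0.59 to 0.92, and 2 in Lcn2-/- livers. With the slide as a fixed block A_30_P01029468 changed by 1.59 in WT livers (adjusted p = 0.0073), whereas A_30_P01024376 of the latter interval went from -0.92 to -0.46 and was not called (adjusted p = 0.394).

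A technical comparison within the same arrays came from 76 lincRNA interval probes whose 60 bases are also on the array under another name at another place. In 30 pairs neither spot was tested and in 3 only 1 was, among them A_30_P01031447 and its copy, which differ and are given with the interaction. These pairs are left out of the following values. For the 43 pairs with both spots tested, the WT changes of both had a Pearson r of 0.92 and a Spearman rho of 0.95. The median absolute difference was 0.037, and the largest was 0.80. For the Lcn2-/- response the coefficients were 0.85 and 0.86.

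Both strands were on the array for 1067 intervals, of which 623 were tested on both strands, 358 on 1 strand and 86 on neither. Between the strands the mean changes of an interval had a Pearson r of -0.040 in WT and 0.024 in Lcn2-/- livers over the 623 intervals. Probes were called on both strands in 64 intervals in WT, 57 with the same direction, 6 with the opposite direction and 1 with both directions on 1 strand, and in 32 intervals in Lcn2-/- livers, 21 with the same and 11 with the opposite direction. Since most calls were lowered in both genotypes, most such strands would share a direction whatever the interval. Nothing is read from these counts. In chr14:73729977-73751877, near Itm2b, the forward probe A_30_P01019856 stood at 8.44, 8.50, 7.25 and 7.95 in WT controls and at 6.17, 6.19, 7.17, 6.74 and 6.59 after CCl4. The reverse probe A_30_P01026488 stood at 3.87, 3.76, 4.87 and 4.60 in WT controls and at 6.55, 6.04, 5.95, 5.63 and 6.33 after CCl4. The forward strand thus fell, by 1.46 (adjusted p = 0.00241), while the reverse strand was at least 2.31-fold higher (adjusted p = 0.00133). With the slide as a fixed block they changed by -1.86 and 2.28. Itm2b changed by 0.11 and was not called.

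A_30_P01026488 was well above background on no control array, so it passed the filter only through the CCl4 arrays. Besides this interval, 4 others named by the rule had calls in opposite directions on both strands in WT livers. In chr6:86776350-86799379 all 3 called probes were well above background on every array, and the mean changes were -0.49 on the forward and 0.44 on the reverse strand. In chr14:20893694-20903726, the forward probe A_30_P01030208 changed by -0.82 and a reverse probe by 0.91, with 1 of 4 WT controls above background, and a second lowered forward probe was well above background on no CCl4 array. In chr16:34524589-34573439, 1 forward probe changed by -0.85 and the reverse probe A_30_P01032204 by 1.37, and the other 3 called reverse probes were well above background in WT CCl4 livers alone. In chr4:124127144-124334840, 2 forward probes fell by a mean of 1.07, and all 4 called reverse probes were well above background in WT CCl4 livers alone. A probe seen in 1 treatment only entered the test through it and had to differ, so these reverse probes, all of those called in the last interval, give no support for opposite directions. With the slide as a fixed block, the 8 probes followed in these 4 intervals, 1 per strand, had no call, but their changes kept their direction. For 4 of them the size stayed within 10% of the reported one, as for A_30_P01029459 at -0.79 and A_30_P01025349 at -0.50, and A_30_P01019540 changed most, to 0.83. The interval chrX:90997595-91009570, near Pdk3, was outside the rule and is named after its values were seen, with a forward probe at -0.75 in WT livers and 3 reverse probes, detected in at least 3 of 4 WT controls, at 1.18, 1.27 and 1.42. The other called reverse probe was well above background in WT CCl4 livers alone.

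Named genes inside an interval were compared with it. Over 298 interval strands that hold a tested probe of a named gene on the same strand, the change of the interval and of the gene had a Pearson r of 0.44 in WT and 0.33 in Lcn2-/- livers. Over 208 with the gene on the opposite strand, r was 0.048 and 0.17. Where the nearest gene on the same strand lay outside but within 10 kb, r was 0.13 over 461 interval strands in WT, and from 10 to 100 kb it was 0.021 over 703. The median WT change of the interval was -0.097 with a gene inside on the same strand and -0.45 with a gene inside on the opposite strand, while the medians of these genes were 0.0092 and 0.025. The probes share arrays and processing, and no p is given for these relations.

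Named long noncoding RNA genes, which are measured by gene probes of the array, gave another comparison. From a list of 42 such genes, among them Malat1, Neat1 and H19, 24 genes with 45 probes were tested. In WT livers 11 probes rose and 2 fell, with a median change of 0.063, where 7.34% of all tested probes were raised and 7.65% lowered. In Lcn2-/- livers 8 rose and 3 fell, with a median of 0.011, where 6.16% and 4.93% of all tested probes did.

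Sequence features of the probes were also counted. The hexamer AATAAA, the usual polyadenylation signal, was in 3.92% of the 16181 lincRNA interval probes in the sense of the named strand and in 10.1% of all 55681 gene probes of 60 bases. Its reverse complement was in 3.02% and 3.74%. Of the probes raised in WT livers 5.68% held it, and of the lowered ones 3.01%. By sequence match to RefSeq of a later build, 170 lincRNA interval probes lay in the window from 250 bases before to 50 after a gene start, 86 of them tested. A run of at least 20 bases was shared with a microRNA hairpin by 20 probes, of which 6 were tested. One of these, A_30_P01029937 on chromosome 12, named here after its values were seen, contains the mature sequence of miR-410-3p and rose by 0.64 (adjusted p = 0.0409) in Lcn2-/- livers, with a change of -0.08 in WT livers. Its interaction of 0.72 was not called, so no difference in response is read from it. Another of the 6, A_30_P01022179 on chromosome 3, fell by 0.65 in WT livers (limma adjusted p = 0.0167). In Lcn2-/- livers it changed by -0.53 without a call. A probe of this kind measures the longer transcript, not the mature microRNA.

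The effect of the genotype was examined next, under CCl4 and in controls. Under CCl4, 26 lincRNA interval probes differed between Lcn2-/- and WT livers, 19 higher and 7 lower in Lcn2-/-, against 0.524% of all tested probes called, 0.264% higher and 0.26% lower. In controls 29 differed, 17 higher and 12 lower, against 0.485% of all tested probes called, 0.206% higher and 0.279% lower. Of these, 14 were called in both comparisons, which is 53.8% of the calls under CCl4 and 48.3% of those in controls, and all 14 had the same direction. A probe detected in 1 genotype only entered the test through that genotype and so had to differ, and this held for 12 of the 26 (7 on no WT and 5 on no Lcn2-/- array well above background) and for 14 of the 29 (9 and 5). Among the 5072 lincRNA interval probes well above background in every group, 11 were called under CCl4, 9 higher and 2 lower. In controls 11 were called, 5 higher and 6 lower. Among probes well above background on all 16 arrays, 0.247% of the lincRNA interval probes and 0.429% of the others were called under CCl4. In controls these shares were 0.302% and 0.316%. The counts depended on the processing. With array weights 63 were called under CCl4 and 278 in controls, against 1.22% and 4.22% of all tested probes. In controls, 103 were called without the filter (0.58% of all probes then tested) and 50 from the deposited log2 values (0.666%). The 41 probes called in either comparison lay on 14 autosomes and on chromosome X. WT arrays lay in tier 1 and Lcn2-/- arrays in tier 2 of the slides, with WT CCl4 replicate 1 in tier 2 as the exception, so genotype and tier could be separated only through that array.

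The lowest p-values came from chromosome 5. A group of 4 probes lies within chr5:67868287-67868521 on the forward strand, 3 of them from the interval chr5:67865049-67868521_F and 1 from chr5:67854954-67869163_F. A_30_P01022803 stood at 6.17, 6.66, 7.35 and 6.94 in WT controls and at 6.95, 7.42, 6.37, 7.71 and 7.58 in WT CCl4 livers. In Lcn2-/- livers it stood at 2.92, 2.92 and 2.97 in controls and at 2.90, 2.91, 2.90 and 2.91 after CCl4, well above background on none of the 7 arrays. It was at least 4.09-fold lower in Lcn2-/- livers under CCl4 (adjusted p = 3.19e-07) and at least 2.40-fold lower in controls (adjusted p = 4.73e-06). The other 3 probes, A_30_P01028861, A_30_P01019330 and A_30_P01030085, were at least 4.66-fold, 3.39-fold and 2.39-fold lower under CCl4. None of the 4 was well above background on any Lcn2-/- array, so they passed the filter through WT arrays alone, and none changed with CCl4 in WT livers by a call. The nearest probe of a named gene, that of Bend4, lies 71506 bases from the longer interval and did not differ between the genotypes by a call.

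On the same chromosome, 3 forward probes were well above background in Lcn2-/- livers alone and passed the filter only through them, so their number and direction add nothing to the bounds given. A_30_P01020007 stood between 2.90 and 3.81 in the 9 WT livers, at 6.86, 6.59 and 6.85 in Lcn2-/- controls and at 6.26, 6.51, 6.65 and 6.79 in Lcn2-/- CCl4 livers. It was at least 3.46-fold higher in Lcn2-/- livers under CCl4 (adjusted p = 1.1e-07) and at least 3.67-fold higher in controls (adjusted p = 2.4e-07). A_30_P01032390 of the same interval and A_30_P01028949 of chr5:105032961-105037248_F were higher in Lcn2-/- livers by at least 2.43-fold and 2.65-fold after CCl4, and by at least 3.01-fold and 3.49-fold in controls. Zfp33b, a zinc finger gene at 21383 bases from the latter interval on the same strand, was also higher in Lcn2-/- livers, by at least 6.11-fold after CCl4 (adjusted p = 1.14e-10) and at least 9.48-fold in controls (adjusted p = 4.07e-11), and its probe A_66_P100937 was likewise well above background on no WT array. A_30_P01033023 in chr5:110502650-110522475_R was higher in Lcn2-/- livers by at least 2.90-fold after CCl4 and by at least 1.51-fold in controls. It too was well above background on no WT array and passed the filter through Lcn2-/- arrays alone.

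Outside chromosome 5 the clearest difference was that of A_30_P01024353 in chr3:117935228-118089771_R. It stood at 4.97, 4.98, 4.92 and 4.53 in WT controls, at 4.84, 5.39, 5.05, 4.90 and 4.79 in WT CCl4 livers, at 10.41, 9.41 and 8.62 in Lcn2-/- controls and at 9.64, 8.57, 8.76 and 9.38 in Lcn2-/- CCl4 livers. It was at least 21.6-fold higher in Lcn2-/- controls (adjusted p = 3.82e-06) and 4.09 higher on the log2 scale under CCl4 (SE 0.30, adjusted p = 4.19e-06), where 3 of 5 WT arrays were well above background. A_30_P01021297 in chr6:23105525-23118900_R was at least 5.66-fold higher in Lcn2-/- controls (adjusted p = 3.54e-05) and 2.02 higher on the log2 scale under CCl4 (adjusted p = 0.000368), where 4 of 5 WT arrays were well above background.

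On chromosome 2, where Lcn2 itself lies, 6 reverse probes of 4 intervals near Hnrnpa3, singled out after their values were seen, were higher in Lcn2-/- livers under CCl4. The interval chr2:75444518-75497268_R contains the others, and A_30_P01021270 and A_30_P01031281 overlap. The 6 probes thus cover 1 locus and are not separate results. For 5 of the 6 probes the difference was between 1.36 and 2.36. Of these, A_30_P01025274, A_30_P01030185 and A_30_P01031281 were well above background on 3, 4 and 2 of 5 WT CCl4 arrays. A_30_P01029215, below that detection flag in all WT livers, was at least 1.65-fold higher and passed the filter only through Lcn2-/- arrays. A_30_P01026125 and A_30_P01029215 were called in controls too. Hnrnpa3, on the forward strand, differed by -0.21 under CCl4 and 0.048 in controls and was not called. Elsewhere on chromosome 2, the reverse probe A_30_P01030872 was lower in Lcn2-/- livers. It differed by -0.91 under CCl4 (limma adjusted p = 0.049) and by -1.52 in controls (adjusted p = 0.00254). Over the whole of chromosome 2, 465 lincRNA interval probes were tested. Under CCl4, 7 were higher, among them the 6 of the locus near Hnrnpa3, and 1 was lower (1.72% called, against 0.524% of all tested probes). In controls 4 were higher and 1 was lower (1.08% called, against 0.485%). In chr16:89961600-89971725_R, singled out in the same way, 3 probes were lower in Lcn2-/- controls, by 1.12, 1.13 and 1.20, at WT control means of 10.77, 10.75 and 10.85. Under CCl4 the differences were -0.61, -0.60 and -0.67 and were not called.

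**Figure D5:**
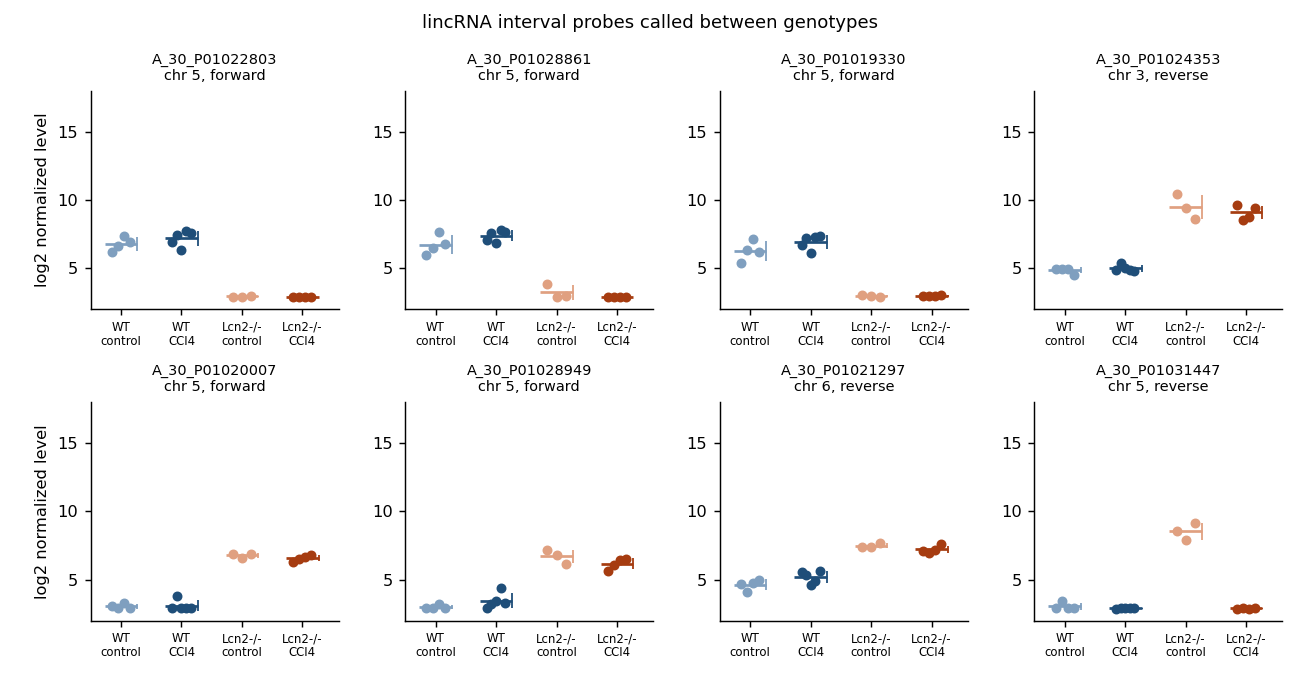
Level (log2) of 8 lincRNA interval probes called between genotypes on each array, by group, with the group mean (horizontal line) and SD (vertical line). In 7 of them the WT and the Lcn2-/- arrays separate under both treatments, whereas A_30_P01031447 (last panel) is high, at 7.92 to 9.16, on the 3 Lcn2-/- control arrays alone.

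Whether the response to CCl4 itself differed between the genotypes was tested as the interaction. It was called for 3 lincRNA interval probes, against 0.0333% of all tested probes, 0.0121% more positive and 0.0212% more negative. All 3 were well above background on the 3 Lcn2-/- control arrays alone and passed the filter only through them, so they had to differ, and their count and direction are no support for a difference in response. Among the 5072 probes well above background in every group, no interaction was called by limma. Of the 3637 well above background on all 16 arrays, 103 had an unadjusted p under 0.05, a smaller share than the 0.05 that chance alone would give. A_30_P01031447 stood at 8.58, 7.92 and 9.16 in Lcn2-/- controls and between 2.86 and 3.44 on the other 13 arrays. The interaction was -5.52 (SE 0.29, adjusted p = 2.37e-07), a fitted value, as are the 2 below, since the probe was below that detection flag in the other 3 groups. The same 60 bases are on the array a second time, as a probe of Gm5563, and this probe was well above background on no array and stood at 3.01, 2.96 and 4.68 in Lcn2-/- controls. The spot of A_30_P01031447 is in row 6 and column 74. In the same column, the probes in rows 2 to 5 and row 8, for the genes Myh6, Nxph2, Olfr1317, Kcna10 and EL606508, were also higher in Lcn2-/- controls, by 1.98 to 5.12.

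A_30_P01024084, the second probe with a called interaction, stood at 6.03, 8.19 and 7.82 in Lcn2-/- controls and between 2.92 and 4.01 elsewhere (interaction -3.76, SE 0.54, adjusted p = 0.0183). It too is in row 6. Of the 7 probes of the whole array with a called negative interaction, 6 lie in rows 3 to 6 of 384. Neither of the 2 other probes of its interval, nor those of the interval of A_30_P01031447, was well above background on any array. A_30_P01033312 on chromosome X, in row 147, stood at 7.61, 7.94 and 7.69 in Lcn2-/- controls and between 2.91 and 4.65 elsewhere (interaction -3.80, SE 0.50, adjusted p = 0.0124). The other 2 tested probes of its interval had interactions of 0.30 and -0.17 and were not called. Without the top 20 rows of the array, 1 lincRNA interval probe had a called interaction.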

How the data were processed

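Liver RNA of 16 mice was hybridized to 1-colour Agilent arrays on 2 slides, 1 array per animal. The deposited scanner files, written by Feature Extraction 10.7.3.1 per the file headers, hold the processed signal intensity per spot, already background-corrected by the authors' scanner software, and flags (other) for spots well above background. The deposited table holds log2 values of the same arrays, which the authors normalized with limma per the submitters' notes. Its scale is log2, its column medians were 6.53 to 6.55, and its centring is not given in the sources used here. Spot intensities are single readings, so the number of arrays limits the precision.

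From the intensities, log2 processed signals were quantile normalized over 16 arrays (R 4.3.3, limma 3.58.1), spots of a probe were averaged, outlier spots and control spots were left out, and 33014 probes that passed that flag on 3 or more arrays were fitted with lmFit and eBayes over 4 groups. Calls used a Benjamini-Hochberg adjusted p under 0.05. A probe with the flag on no array of a group is given as a bound, set against each array's lowest signal that carried the flag. Interactions, ranges or means over probes and values under alternatives are fitted values, as are changes where only some arrays carried it. Tested on simulated data for the WT response on 33014 probes, the fit recovered 48% of changes of 1 and 80% of changes of 2 on the log2 scale. Alternatives were 75th percentile scaling, normexp, the deposited table, filters, weights, blocks and left-out arrays.

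The members and lists were chosen with earlier results of these data known. Named probes were the 6 most raised and 6 most lowered called probes per CCl4 response with non-overlapping groups, 1 per interval, the 10 with the lowest p per genotype comparison, called interactions, and up to 5 intervals with the most calls and with opposite strands. Same-numbered WT and Lcn2-/- controls deviated together in all 3 pairs (r from 0.20 to 0.52), whereas same-numbered CCl4 pairs ranged from -0.25 to 0.27. Pairs with different numbers varied as widely. WT control 1 had an r of 0.27 with Lcn2-/- control 2, and WT control 2 had -0.39 with Lcn2-/- control 3. WT CCl4 5 had an r of 0.64 with Lcn2-/- CCl4 4. Shared numbers therefore do not set the arrays that deviated together apart from the rest. Nothing in the labels says that a number marks a shared day. Coordinates are those of the files (mm9, per the file headers), and gene names are those of the array design. A distance between an interval and a gene is the distance to the probe of that gene, and the gene itself can lie closer.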

Additional observations from a re-analysis of the deposited data

Results flagged for a closer look

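The first 3 results are listed because their interaction of genotype and CCl4 had an adjusted p under 0.05 (limma). The interaction was -5.52 for A_30_P01031447, -3.76 for A_30_P01024084 and -3.80 for A_30_P01033312. In each, the 3 Lcn2-/- control arrays alone were high and well above background, and the probe passed the filter only through them, so these 3 values do not support a difference in the response to CCl4.

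Of 144 tests for a single array far from its group, 17 were positive in 16 probes, where chance gives about 1 in 20. In WT controls, replicate 3 was high for A_30_P01033518 (5.84), A_30_P01024579 (5.10), A_30_P01032460 (4.27) and A_30_P01028949 (3.25), whose other controls stood near the detection limit. Replicate 4 was high for A_30_P01019540 (3.74), A_30_P01033023 (3.88) and A_30_P01017743 (3.47) and low for A_30_P01024353 (4.53). Replicate 2 was high for A_30_P01031447 (3.44) and A_30_P01025847 (9.25).

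In WT CCl4 livers, replicate 1 was low for A_30_P01019540 (3.98) and high for A_30_P01032390 (3.99). Replicate 2 was high for A_30_P01024084 (3.78) and A_30_P01020007 (3.81) and low for A_30_P01030972 (3.16), and replicate 5 was high for A_30_P01020771 (8.67). In Lcn2-/- CCl4 livers, replicate 3 was high for A_30_P01030448 (6.85).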

How the results depend on the processing

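Counts of called lincRNA interval probes are given for WT response, Lcn2-/- response, genotype under CCl4, genotype in controls and interaction, where the reported counts were 1072, 660, 26, 29 and 3. Array weights gave 2010, 1668, 63, 278 and 5, where 26.1%, 25.7%, 1.22%, 4.22% and 0.0636% of all tested probes were called. One probe per interval and strand gave 675, 369, 15 and 16 for the first 4 (16.7%, 12.2%, 0.65% and 0.518%), with fewer probes tested. The slide as a fixed block gave 238 and 63 for the responses (4.52% and 1.59% of all tested probes), with a Lcn2-/- median of -0.33, and slide 1 alone gave 151 in WT (2.45%). Requiring all 16 arrays above background gave 433, 11, 11 and 0 for the last 4 (10.8%, 0.527%, 0.286% and 0.00402%). Of these 3637 lincRNA interval probes, 103 had an unadjusted limma p under 0.05 for the interaction, a smaller share than chance gives. No filter gave 103 in controls (0.58%) and 12 interactions (0.0468%), the deposited log2 values 50 in controls (0.666%), the array without its top 20 rows 1 interaction (0.0129%), and omission of both control replicates 3 gave 41 under CCl4.

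The median changes of -0.28 in WT and -0.23 in Lcn2-/- livers became -0.46 and -0.43 with 75th percentile scaling, -0.13 and -0.12 with normexp, and -0.046 and -0.041 without the filter, which adds undetected probes. The causes were not tested. Leaving out 1 array gave 561 to 1339, 314 to 689, 14 to 29, 21 to 41 and 2 to 6 calls, and medians from -0.33 to -0.23 and -0.29 to -0.19. Counts moved by over 1.5 times without WT control replicates 1 (561) and 2 (612), Lcn2-/- control replicates 1 (341) and 2 (314), and, under CCl4, WT CCl4 replicates 2 (15) and 4 (17) and Lcn2-/- CCl4 replicate 3 (14). Without WT control replicate 2 there were 6 interactions. The replicate block gave 1001, 639, 19, 24 and 2, where 4542, 3526, 119, 120 and 7 of all 33014 tested probes were called. Of 1733 values of named probes under alternatives, 1667 kept their call, 66 lost it and none reversed, and 36 of the losses came with the slide block or within slide 1.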
